A study of Mus musculus with 15 samples.

Results

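The collagen genes of the mouse stomach were followed through development. They were taken as every gene symbol of the form Col, a number, a and a number (Col1a1, for example), which gave 44 of the 44788 symbols in the files. Of these, 42 reached an FPKM (a read level corrected for transcript length and for the size of the library) of at least 1 at some timepoint and were tested, among 16902 symbols that did so. Col4a4 stayed at or below 0.774 FPKM and Col10a1 at or below 0.244 FPKM, and neither was tested.

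The transcriptomes came from whole stomachs of C57BL/6 mice, with no genetic change and no treatment. There was 1 transcriptome at each of 15 timepoints, daily from E12.5 to E18.5 before birth, at D1, D3 and D5 in the first days after it, and at W1, W2 and W3 and then W6 and W8 (E, embryonic day; D, postnatal day; W, postnatal week). They were grouped by the RNA phases of the study, Ph1 (E12.5 to E17.5, 6 timepoints), Ph2 (E18.5 to W2, 6 timepoints) and Ph3 (W3 to W8, 3 timepoints). Stomachs of several embryos were pooled at the timepoints of Ph1 and not after them, so that age and pooling cannot be told apart in the step from Ph1 to Ph2. Mice older than 2 weeks were male while younger ones were taken without regard to sex, so that age and sex cannot be told apart in the step into Ph3. With a single transcriptome per age, the ages within a phase took the place of replicates, and each p-value measures the spread between those ages, not between animals. The phases were drawn from these same transcriptomes by the study.

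Collagens are proteins whose chains wind into a triple helix, and each gene encodes a single chain. Fibrillar collagens (types I, II, III, V, XI, XXIV and XXVII) form or seed the cable-like fibrils of connective tissue, and fibril-associated collagens sit on the surface of these fibrils. Type IV collagen forms the sheet-like network of basement membranes under epithelia and around muscle cells, type VI forms beaded filaments beside cells, and transmembrane collagens such as Col17a1 hold epithelial cells to the layer beneath. In the stomach these chains are made mainly by fibroblasts, smooth muscle cells, endothelial cells and epithelial cells, and in mice the forestomach is lined by squamous epithelium like that of skin.

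Upstream sequences are shown for 4 members that stand for the main patterns described below. Col3a1 is an abundant fibrillar chain that fell into Ph3. In mean log2(FPKM + 1), Col5a3 had the largest rise from Ph1 to Ph2, Col11a1 the largest fall in the same step and Col17a1 the largest fall into Ph3. That scale understates changes of low genes. In mean FPKM the fall into Ph2 was 3.46 times for Col11a1, 4.32 for Col26a1, 7.67 for Col9a1 and 118.6 for Col2a1. The fall into Ph3 was 16.4 times for Col17a1 and 17.7 for Col6a6. The sequences are RefSeq sequences of GRCm38.p6 read 5′ to 3′ on the strand of the gene, from 250 bases before the RefSeq start up to the start or to the first base that an annotation places in a transcript. The stretches lie at chr1:45311288-45311537 (plus strand) for Col3a1, chr9:20815123-20815317 (minus strand) for Col5a3, chr3:114030290-114030478 (plus strand) for Col11a1 and chr19:47692095-47692292 (minus strand) for Col17a1. Capitals mark, on either strand, the promoter motif spelled CCAAT, the Sp1-type motif spelled GGGCGG and the start-site motif spelled TATAAA.
Col3a1: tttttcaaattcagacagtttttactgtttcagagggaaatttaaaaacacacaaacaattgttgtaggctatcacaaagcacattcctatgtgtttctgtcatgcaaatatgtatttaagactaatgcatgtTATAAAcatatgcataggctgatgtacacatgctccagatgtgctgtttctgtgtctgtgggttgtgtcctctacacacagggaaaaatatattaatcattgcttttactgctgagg
Col5a3: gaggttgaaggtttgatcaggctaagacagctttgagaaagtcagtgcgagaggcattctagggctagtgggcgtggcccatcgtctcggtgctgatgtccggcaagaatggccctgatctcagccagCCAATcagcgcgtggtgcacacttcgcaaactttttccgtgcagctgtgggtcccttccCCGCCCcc
Col11a1: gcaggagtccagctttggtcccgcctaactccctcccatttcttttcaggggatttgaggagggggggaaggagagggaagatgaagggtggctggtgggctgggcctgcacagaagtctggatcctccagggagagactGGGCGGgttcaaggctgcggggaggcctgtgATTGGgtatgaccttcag
Col17a1: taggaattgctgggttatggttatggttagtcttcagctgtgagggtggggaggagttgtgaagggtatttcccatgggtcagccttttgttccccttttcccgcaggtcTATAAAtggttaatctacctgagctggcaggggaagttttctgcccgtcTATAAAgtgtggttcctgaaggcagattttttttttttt

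The 4 sequences differ in which of these letters they hold. Col3a1 has TATAAA starting 117 bases before the start, and Col17a1 has it at 140 and at 91 bases before the start. Col5a3 has CCAAT at 122 bases and GGGCGG, on the opposite strand, at 63 bases before the start, and Col11a1 has GGGCGG at 110 bases and CCAAT, on the opposite strand, at 79 bases before the start. RefSeq promoter entries were matched for 35 of the 44 collagen genes, with 38 entries in all. Within the 250 bases upstream, GGGCGG was in 22 of the 38 collagen entries and in 32.7% of all 32851 entries, CCAAT in 13 and in 33.8%, and TATAAA in 5 (Col3a1, Col10a1, Col11a2, Col13a1 and Col17a1) and in 12.4%. These are matches of letters and not measured binding sites.

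Several libraries stood apart in ways that touch the collagen values. Of 5 liver markers, Alb, Afp and Serpina1a were highest at D1, with albumin (Alb) at 460.5 FPKM and Afp at 185.9 FPKM, against 0.672 to 65.4 FPKM and 0.376 to 22.3 FPKM at the other timepoints. Apoa1 and Ttr were not highest there, and the sum of the 5 was 1170 FPKM at D1 and 1468 to 2397 FPKM in Ph3, where Apoa1 alone was at 1259 to 2270 FPKM. At W8 the squamous basal markers Krt5, Krt14, Trp63 and Dsg3 were near 0, at 1.26, 0.366, 0.0511 and 0.0112 FPKM. Itgb4, of the same list, was not, at 21.6 FPKM at W8 and 20.3 to 28.2 FPKM from E17.5 on. The 10 most abundant genes held 11.2% of the summed FPKM at E14.5 and 53.2% at W6. FPKM is relative to the whole library, so each comparison was also made after median-ratio scaling, which sets the typical gene level between samples. The median gene of all tested differed by -0.22 on the log2 scale from Ph1 to Ph2 and by -0.43 from Ph2 to Ph3 before that scaling, and by 0.00045 and -0.016 after it. The mesenchyme markers Pdgfra, Pdgfrb, Dpt, Fbln1, Vim and Meox1 summed to 649 to 730 FPKM in Ph1, to 317 to 654 FPKM in Ph2 and to 134 to 369 FPKM in Ph3. Dpt did not follow the sum, at 0.656 FPKM at E12.5 and 98.4 FPKM at W3. In whole organs, fewer cells of a type and less RNA per cell cannot be told apart.

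**Figure D1:**
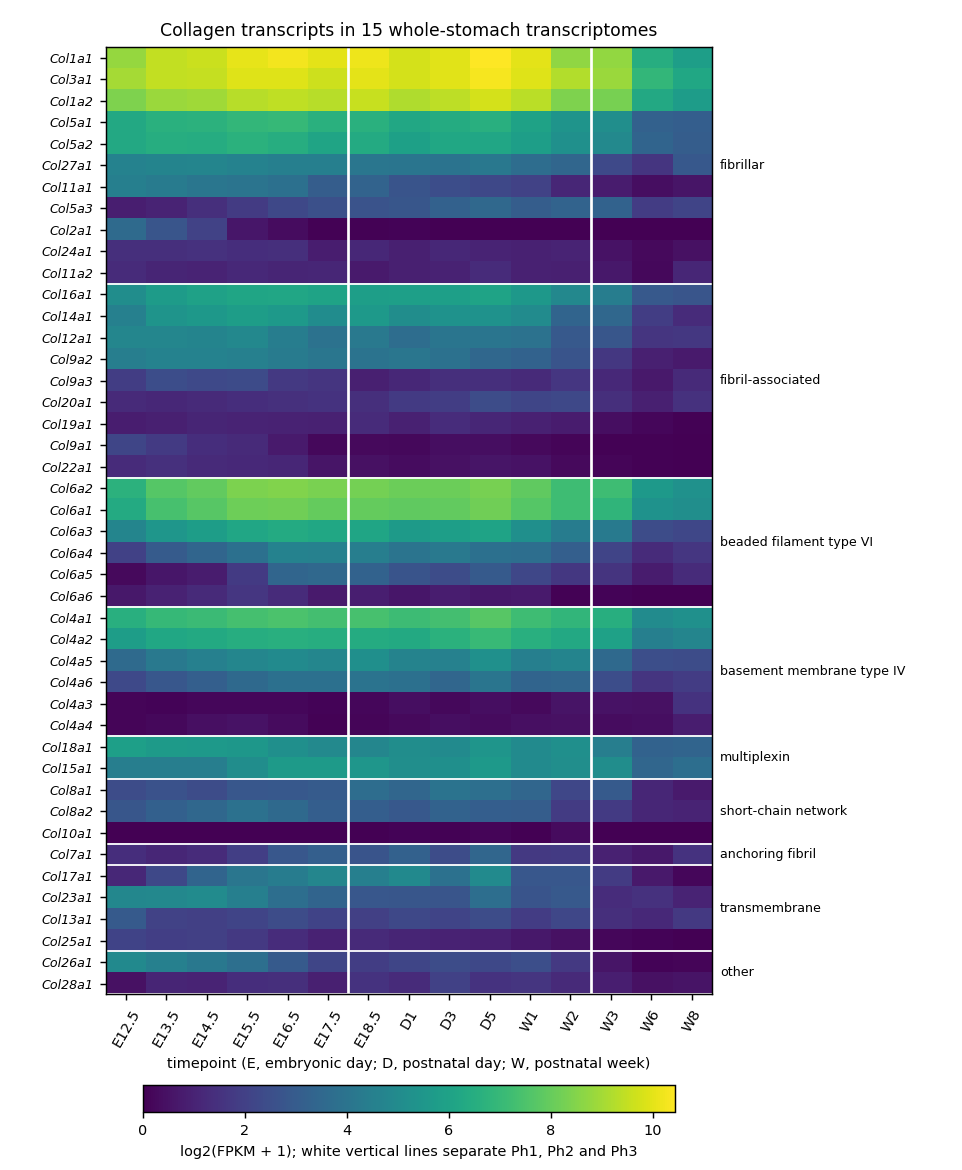
Level of each of the 44 collagen genes, as log2(FPKM + 1) in colour, at the 15 timepoints (columns), grouped by collagen class (rows). The highest means were those of Col1a1, Col3a1, Col1a2, Col6a2, Col6a1, Col4a1 and Col4a2, while other chains of types VI and IV were less abundant. The rows of most classes are darkest, and so lowest, at W6 and W8.

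The collagen transcripts together were highest at D5 and lowest at W8. Their FPKM summed to 2178 at E12.5, to 5071 at D5, to 2153 at W2 and to 406 at W8. After median-ratio scaling the sum was also highest at D5 (4769) and lowest at W8 (599.6). Of the 42 tested members, 11 were highest at D5 and 8 at E12.5, and the peak fell in Ph1 for 27, in Ph2 for 14 and in Ph3 for 1 (22, 17 and 3 after scaling). Among all tested symbols the peak lay in Ph1 for 60.5%, in Ph2 for 26.3% and in Ph3 for 13.1% (40.6%, 21.5% and 37.9% after scaling). Col1a1, Col1a2 and Col3a1 made up 60.1% of the collagen FPKM at E12.5, 70.3% at W1 and 45.5% at W8.

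From Ph1 to Ph2 few collagen genes were called as different. In a limma fit on log2(FPKM + 1) across all genes, with an adjusted p under 0.01 as the call, 2 of the 42 members rose and 9 fell, where 13.2% of all tested genes rose and 35.1% fell. The members that rose were Col5a3 and Col20a1, and those that fell were Col11a1, Col26a1, Col23a1, Col9a1, Col9a2, Col25a1, Col9a3, Col27a1 and Col22a1. After median-ratio scaling 3 members rose and 6 fell, against 20% and 18.7% of all tested genes. The median difference of the members was -0.15 on the log2 scale and 0.090 after scaling. Changes between the ages within a phase widen the SE, so a member without a call may still have changed across these ages. Col17a1, which was not called, was 16.25 times as high at E16.5 as at E12.5. With phases divided at birth and at weaning instead (E12.5 to E18.5, D1 to W2, W3 to W8), 2 members rose and 5 fell in this step. Of all 16902 tested genes, 1820 rose and 5170 fell with that division.

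From Ph2 to Ph3, 31 of the 42 members fell and none rose in the limma fit, where 37.4% of all tested genes fell and 3.41% rose. The 1 positive difference, of Col4a3, had an unadjusted p under 0.05 and an adjusted p of 0.025. After median-ratio scaling 25 members fell and 1, Col4a3, rose, against 10.2% and 15.3% of all tested genes. The median difference of the members was -1.67 on the log2 scale and -1.18 after scaling, and 41 of the 42 differences were negative on the first scale and 40 on the second. The values of Ph2 and Ph3 did not overlap for 30 members as deposited and for 19 after scaling, of which Col4a3 was the one with higher values in Ph3. The share of all tested genes without such overlap was not counted, so these counts do not show whether the collagen genes stand apart. Ph3 holds 3 transcriptomes, and the count depended on which of them entered. Without W6, 20 members fell, and 2842 of all 16902 tested genes did, against 6328 with it. Without D1, where Alb and Afp were highest, and W8, where Krt5, Krt14, Trp63 and Dsg3 were near 0, 20 fell as deposited and 4 after scaling. Of all 16902 tested genes, 3997 fell as deposited and 788 after scaling when these timepoints were left out. The 4 members were Col5a2, Col27a1, Col9a2 and Col19a1, and the other members that lost the call had differences of -2.17 to -0.39.

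**Figure D2:**
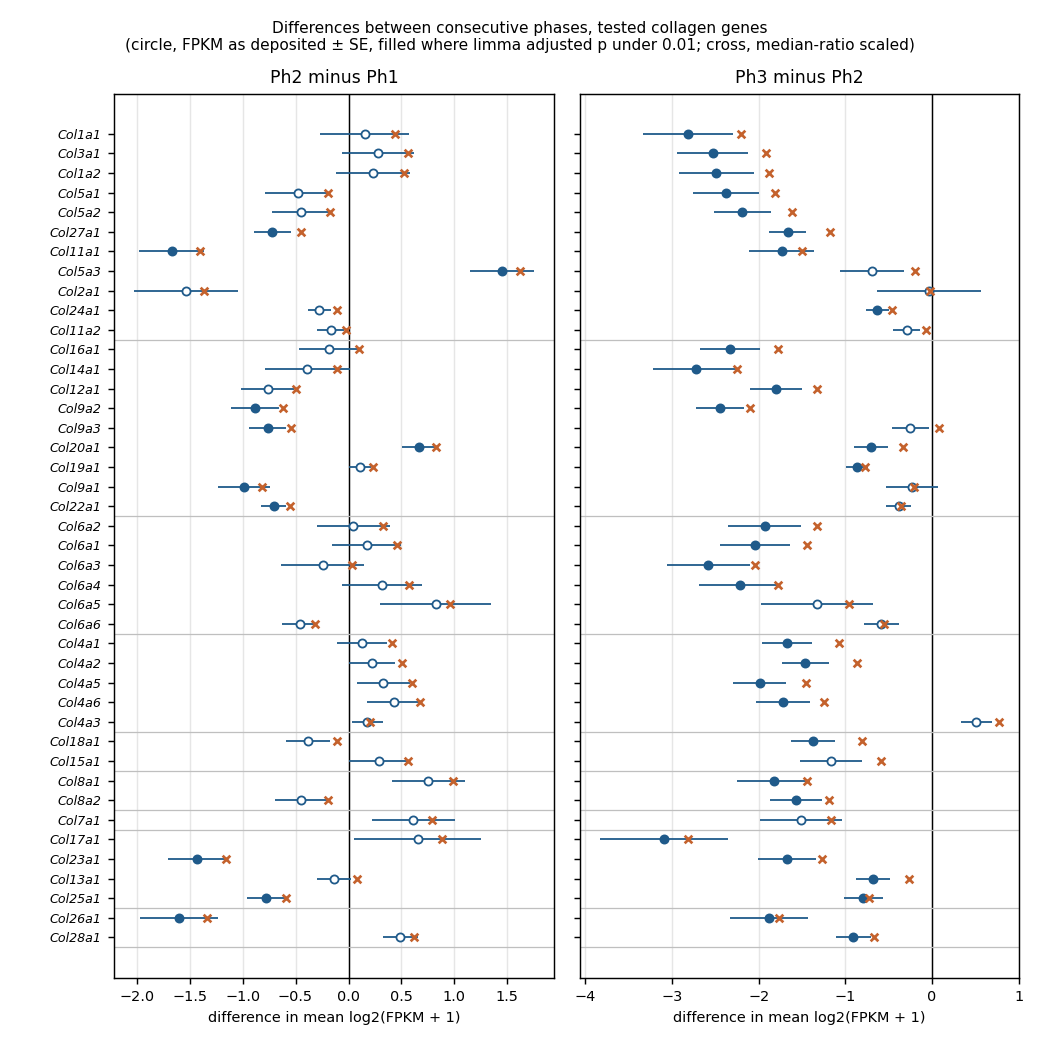
Difference in mean log2(FPKM + 1) between consecutive phases for the 42 tested collagen genes (circles with SE from limma, filled where the adjusted p was under 0.01; crosses after median-ratio scaling). Most circles of the left panel are open and lie on both sides of 0, and most circles of the right panel are filled and lie below 0.

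The chains of the main fibrils were the most abundant collagen transcripts. Col1a1 (chr11:94936270-94951867) and Col1a2 (chr6:4505697-4541543) encode the 2 chains of type I collagen, and Col3a1 encodes the chain of type III, which shares fibrils with type I in soft organs. Col1a1 ranged from 443.6 FPKM at E12.5 to 1213 at E16.5 in Ph1, with a median of 892, and from 408.9 at W2 to 1379 at D5 in Ph2, with a median of 1011. In Ph3 it was at 421 FPKM at W3, 88.3 at W6 and 57.0 at W8. The levels of Ph1 and Ph2 overlapped, and those of Ph3 lay below all of Ph2 except that W3 was slightly above W2. The difference was 0.15 ± 0.42 (log2, SE; adjusted p = 0.77, limma) from Ph1 to Ph2, and Col1a1 fell by 2.82 ± 0.52 on the log2 scale from Ph2 to Ph3 (adjusted p = 0.00060). Between D5 and W8 its FPKM differed by 24.2 times, and by 15.4 times after scaling.

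The FPKM of Col3a1 (chr1:45311538-45349706) was 524 at E12.5, 760.0 as the median and 975 at E16.5 in Ph1, and 601 at W2, 983 as the median and 1241 at D5 in Ph2. In Ph3 it was at 458 at W3, 120 at W6 and 73.7 at W8, all below Ph2. Col3a1 fell by 2.53 ± 0.41 (adjusted p = 0.00030, limma) into Ph3, after a difference of 0.28 ± 0.34 (adjusted p = 0.48) between the first phases. Col1a2 ranged from 341 to 698 FPKM in Ph1, with a median of 558, and from 341 to 866 in Ph2, with a median of 665. It was at 309 at W3, 78.5 at W6 and 54.0 at W8, and it fell by 2.49 ± 0.43 (adjusted p = 0.00042) into Ph3, after a difference of 0.23 ± 0.35 (adjusted p = 0.57). All 3 chains kept their call into Ph3 when any timepoint was left out.

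**Figure D3:**
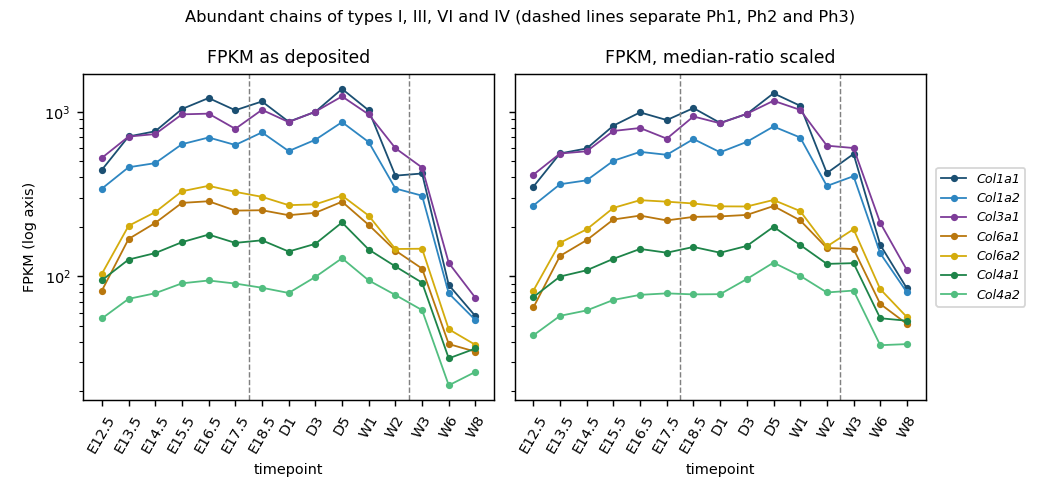
FPKM on a log axis of 7 abundant collagen transcripts at the 15 timepoints, as deposited (left) and after median-ratio scaling (right). As deposited the lines are highest at D5, or at E16.5 for Col6a1 and Col6a2, and after scaling all 7 are highest at D5. The lowest points are at W6 or W8.

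Of the type V chains, which start and narrow the type I fibrils, Col5a1 and Col5a2 fell into Ph3 and Col5a3 rose into Ph2. Col5a2 (chr1:45374331-45503282, beside Col3a1 on the same chromosome) ranged from 67.2 to 101 FPKM in Ph1 with a median of 87.6, from 36.4 to 82.6 in Ph2 with a median of 65.8, and was at 29.3, 9.14 and 7.32 at W3, W6 and W8. It fell by 2.19 ± 0.33 into Ph3 (adjusted p = 0.00020, limma), and Col5a1 fell by 2.38 ± 0.38 (adjusted p = 0.00026). Col5a3 instead was lowest at E12.5 (0.843 FPKM), reached 4.85 at E17.5, the highest value of Ph1, and lay between 5.44 at E18.5 and 10.54 at D5 in Ph2. No value of Ph2 lay within Ph1. Col5a3 rose by 1.45 ± 0.30 on the log2 scale from Ph1 to Ph2 (adjusted p = 0.00098, limma), and by 1.62 after scaling. At W3, W6 and W8 it was at 8.67, 2.60 and 3.37 FPKM, and the difference from Ph2 to Ph3 was -0.69 ± 0.37 (adjusted p = 0.12).

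The chains best known from cartilage were highest in the youngest stomachs. Col2a1, the main fibrillar chain of cartilage, was at 11.2 FPKM at E12.5 (authors' bounds 10.4 to 11.99), 5.70 at E13.5, 3.14 at E14.5 and 0.549 at E15.5, and at or below 0.0621 FPKM from E17.5 on. Its difference from Ph1 to Ph2 was -1.53 ± 0.49 on the log2 scale (adjusted p = 0.014, limma), which missed the call. With a pseudocount of 0.1 the adjusted p was 0.0036. Col11a1, which joins type II or type V fibrils, was lowest in Ph1 at E17.5 (7.55 FPKM) and highest at E12.5 (21.7 FPKM), with a median of 15.7. It ranged from 1.18 at W2 to 8.85 at E18.5 in Ph2, with a median of 4.16, and was at 0.716, 0.291 and 0.514 at W3, W6 and W8. E18.5 alone lay within Ph1. Col11a1 fell by 1.67 ± 0.30 from Ph1 to Ph2 (adjusted p = 0.00041) and by 1.74 ± 0.37 into Ph3 (adjusted p = 0.0015, and 0.013 without W6).

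The type IX chains coat type II fibrils in cartilage. Col9a1 was at 3.54 FPKM at E12.5 and 0.173 at E17.5, with a median of 1.48 in Ph1, and lay between 0.101 and 0.325 in Ph2. It fell by 0.99 ± 0.24 (adjusted p = 0.0030, limma), and was between 0 and 0.0569 FPKM in Ph3. Col9a2 was more abundant, at 16.0 to 23.9 FPKM in Ph1 with a median of 21.9, at 5.47 to 16.2 in Ph2 with a median of 11.9, and at 2.22, 0.869 and 0.706 at W3, W6 and W8. It fell by 0.89 ± 0.23 into Ph2 (adjusted p = 0.0037, and 0.010 without W1) and by 2.45 ± 0.28 into Ph3 (adjusted p = 5.8e-05). Col9a3 fell by 0.76 ± 0.17 into Ph2 (adjusted p = 0.0017). After scaling, the fall of Col9a1 kept its call, and the adjusted p was 0.021 for Col9a2 and 0.011 for Col9a3.

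Most other markers of cartilage were at or near 0 in all stomachs. Acan stayed at or below 0.138 FPKM, Matn1 at or below 0.0633, Matn3 at or below 0.255 and Comp at or below 0.286. Hapln1 was at 2.07 FPKM at E12.5 and 0.0849 at W6, and Chad was at 0.648 at E12.5 and 77.2 at E18.5. The 6 markers summed to 3.06 to 32.4 FPKM in Ph1, 28.3 to 78.3 in Ph2 and 17.3 to 21.01 in Ph3, and Chad was most of the sum at each timepoint after E13.5. Hapln1 was highest at E12.5, as was Col2a1, and Chad was lowest there.

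**Figure D4:**
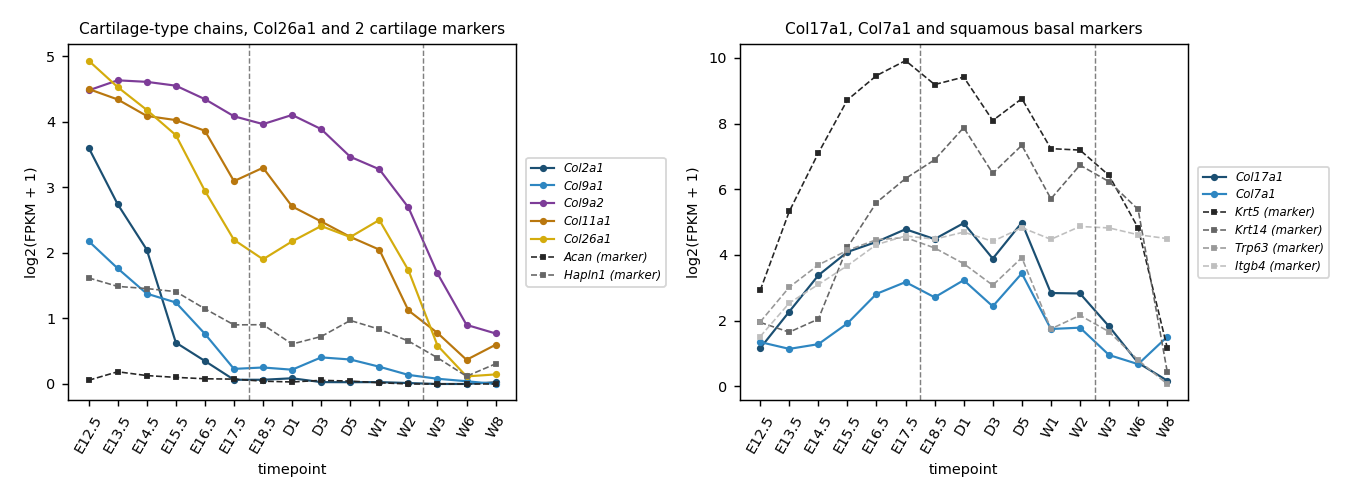
Level, as log2(FPKM + 1), of the cartilage-type chains Col2a1, Col9a1, Col9a2 and Col11a1 and of Col26a1 beside the cartilage markers Acan and Hapln1 (left), and of Col17a1 and Col7a1 beside 4 markers of squamous basal epithelium (right), at the 15 timepoints. The chains Col9a3, Col10a1 and Col11a2 are not drawn. Col2a1 starts at 11.2 FPKM and is near 0 from E17.5 on, while Acan is near 0 throughout. Col17a1 and Krt5 are both low at E12.5 and at W8, and Itgb4 is not low at W8 (21.6 FPKM). The listed markers Matn1, Matn3, Comp, Chad and Dsg3 are not drawn, and of these Chad was at 0.648 FPKM at E12.5 and 77.2 at E18.5.

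Col26a1 and Col23a1 were also highest before birth. Col26a1 (also known as Emid2), a collagen described in testis and ovary, was at 29.6 FPKM at E12.5, at 3.59 at E17.5 and at 15.0 as the median of Ph1, and between 2.33 at W2 and 4.67 at W1 in Ph2, with a median of 3.63. It was at 0.502 at W3, 0.0833 at W6 and 0.106 at W8. Col26a1 fell by 1.60 ± 0.37 into Ph2 (adjusted p = 0.0018, limma) and by 1.88 ± 0.45 into Ph3 (adjusted p = 0.0030, and 0.019 without W6 and 0.014 without W8). Col23a1, a transmembrane collagen that can be shed from the cell surface, ranged from 9.18 at E17.5 to 31.9 at E14.5 in Ph1, with a median of 24.2. In Ph2 it lay between 5.58 and 6.47 FPKM except at D5, where it was at 12.51, and it was at 1.51, 1.80 and 1.08 at W3, W6 and W8. Col23a1 fell by 1.43 ± 0.27 into Ph2 (adjusted p = 0.00057) and by 1.67 ± 0.34 into Ph3 (adjusted p = 0.0010). The remaining falls into Ph2 were smaller than these in log2(FPKM + 1), a scale that understates changes of low genes. They were -0.78 ± 0.18 for the neuronal transmembrane collagen Col25a1, -0.72 ± 0.18 for the fibrillar Col27a1 and -0.71 ± 0.12 for the fibril-associated Col22a1. In mean FPKM the fall was 2.59 times for Col25a1, 1.67 for Col27a1 and 3.44 for Col22a1, against 4.32 for Col26a1 and 3.08 for Col23a1. Col27a1 lost its call after scaling (-0.45, adjusted p = 0.025).

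The fibril-associated collagens Col12a1 and Col14a1 bind to the surface of type I fibrils, and Col16a1 was the member of this class with the highest mean. Col16a1 ranged from 33.4 to 72.01 FPKM in Ph1 with a median of 63.4, and from 28.3 to 64.8 in Ph2 with a median of 57.2, and was at 20.3, 6.44 and 5.74 at W3, W6 and W8. Its difference was -0.18 ± 0.28 (adjusted p = 0.59, limma) between the first phases, and it fell by 2.33 ± 0.35 (adjusted p = 0.00019) into Ph3. Col14a1 was at 22.6 at E12.5, 55.4 at E15.5 and 44 as the median of Ph1. In Ph2 it lay between 31.6 and 46.9 at 5 timepoints and was at 9.20 at W2, and it was at 10.2, 2.72 and 1.43 in Ph3. It fell by 2.73 ± 0.49 into Ph3 (adjusted p = 0.00051).

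Col12a1 ranged from 14.4 to 27.8 FPKM in Ph1 and from 6.53 to 17.4 in Ph2, and was at 5.83, 2.01 and 2.21 in Ph3. It fell by 1.80 ± 0.30 into Ph3 (adjusted p = 0.00037), after a difference of -0.76 ± 0.25 (adjusted p = 0.015, limma). Col20a1 rose by 0.66 ± 0.16 into Ph2 (adjusted p = 0.0024), from 1.27 to 1.86 FPKM in Ph1 to 1.65 to 4.40 in Ph2. Its fall of 0.71 ± 0.19 into Ph3 (adjusted p = 0.0068) lost the call after scaling (-0.33, adjusted p = 0.20) and on leaving out 6 of the 15 timepoints, each by itself. Of the 9 fibril-associated members, 1 rose and 4 fell into Ph2, where 35.1% of all tested genes fell, and after scaling 1 rose and 2 fell, where 18.7% fell. Into Ph3 6 of the 9 fell, against 37.4%, and 5 after scaling, against 10.2%.

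Of the 6 type VI chains, none passed the test in the first step, and 4 fell in the second as deposited and 3 after scaling. Of all tested genes, 37.4% fell in the second step as deposited and 10.2% after scaling. In the first step 13.2% of all tested genes rose and 35.1% fell as deposited, and 20% and 18.7% after scaling. Col6a1 (chr10:76708792-76726044) and Col6a2 (chr10:76595756-76623625) lie near each other on the same chromosome. Col6a2 was at 103 FPKM at E12.5, 354.5 at E16.5 and 285.5 as the median of Ph1, at 146 to 309 in Ph2 with a median of 272, and at 147, 47.5 and 38.1 at W3, W6 and W8. Its W3 value lay just above W2 and the other values of Ph3 below all of Ph2. Col6a2 fell by 1.93 ± 0.42 into Ph3 (adjusted p = 0.0017, limma), with an adjusted p of 0.016 without W6, 0.014 without W8 and 0.017 after scaling. Col6a1 ranged from 81.6 to 286 FPKM in Ph1 with a median of 231, from 143 to 284 in Ph2 with a median of 239, and was at 111, 38.6 and 34.7 in Ph3. It fell by 2.04 ± 0.40 (adjusted p = 0.00087).

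Col6a3, the longest chain of type VI, had the largest difference of its class in log2(FPKM + 1), which understates changes of low genes. In mean FPKM the fall into Ph3 was 5.64 times for Col6a3, 6.31 for Col6a4 and 17.7 for the low Col6a6. Col6a3 ranged from 26.0 to 83.0 FPKM in Ph1 with a median of 63.1, from 20.01 to 68.4 in Ph2 with a median of 53.8, and was at 18.4, 4.35 and 3.67 at W3, W6 and W8. Col6a3 fell by 2.58 ± 0.48 into Ph3 (adjusted p = 0.00061, limma). Col6a4, Col6a5 and Col6a6 can take the place of Col6a3 in the filament and lie in a row on chromosome 9. Col6a4 fell by 2.22 ± 0.46 (adjusted p = 0.0013, and 0.012 without W6). Col6a5 was at 0.185 FPKM at E12.5 and 10.4 at E17.5, and its differences of 0.82 ± 0.53 and -1.33 ± 0.65 did not pass (adjusted p = 0.18 and 0.089), and neither did those of Col6a6, which was at or below 2.16 FPKM. Together the type VI chains held 9.86% of the collagen FPKM at E12.5, 17.53% at E17.5 and 19.7% at W8.

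Type IV collagen is the core of the basement membrane. Its 6 genes lie in pairs that point away from each other, as in Col4a1 (chr8:11198423-11312826) and Col4a2 (chr8:11312829-11449287). Col4a1 was at 94.4 FPKM at E12.5, 179 at E16.5 and 149 as the median of Ph1, at 115 to 212 in Ph2 with a median of 151, and at 91.2, 31.6 and 36.3 at W3, W6 and W8. All values of Ph3 lay below Ph2. Col4a1 fell by 1.68 ± 0.29 into Ph3 (adjusted p = 0.00040, limma), after a difference of 0.13 ± 0.23 (adjusted p = 0.64). Col4a2 ranged from 55.2 to 94.1 FPKM in Ph1 and from 76.8 to 128 in Ph2, was at 62.1, 21.6 and 26.1 in Ph3, and fell by 1.46 ± 0.27 (adjusted p = 0.00061). After scaling the difference of Col4a2 was -0.87 (adjusted p = 0.011).

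The other type IV chains are used in special basement membranes. Col4a5 and Col4a6, which lie head to head on chromosome X and are found together around smooth muscle, were at 11.2 to 31.2 and 3.92 to 13.4 FPKM in Ph1 and at 22.0 to 36.4 and 9.41 to 15.7 in Ph2. In Ph3 Col4a5 was at 10.9, 4.65 and 4.39 and Col4a6 at 4.45, 2.05 and 2.59 FPKM, below Ph2 in each case. Col4a5 fell by 1.99 ± 0.31 (adjusted p = 0.00022, limma) and Col4a6 by 1.72 ± 0.31 (adjusted p = 0.00056). Col4a3, a chain of kidney and lung basement membranes, went the other way on the scaled values. It was at 0.0713 to 0.152 FPKM in Ph1, 0.133 to 0.447 in Ph2, and 0.443, 0.371 and 1.88 at W3, W6 and W8 (authors' bounds at W8 1.68 to 2.07). Its difference of 0.51 ± 0.18 into Ph3 missed the call (adjusted p = 0.025) and passed after scaling (0.78, adjusted p = 0.0078). Without W8 the adjusted p on the deposited scale was 0.20. Its neighbour Col4a4 was also highest at W8. The type IV chains held 6.83% to 7.76% of the collagen FPKM from E12.5 to W1, and 10.6%, 9.25%, 12.1% and 17.7% at W2, W3, W6 and W8.

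The multiplexins Col15a1 and Col18a1 anchor basement membranes to the tissue around them. Col18a1, whose end can be cut off as endostatin, was highest at E12.5 (58.5 FPKM) and lowest in Ph1 at E17.5 (29.4), lay between 27.0 and 41.9 in Ph2, and was at 21.2, 8.73 and 9.31 in Ph3. Col15a1 was at 21.2 to 21.3 FPKM from E12.5 to E14.5 and at 49.8 at E17.5, between 30.5 and 48.1 in Ph2, and at 33.3, 9.84 and 12.52 in Ph3. Neither passed between Ph1 and Ph2. Col18a1 fell by 1.38 ± 0.25 into Ph3 (adjusted p = 0.00056, limma), and the difference of Col15a1 was -1.17 ± 0.35 (adjusted p = 0.012).

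Col17a1 and Col7a1 belong to the layer that fixes squamous epithelium to its stroma. Col17a1 (chr19:47646341-47692042) is a transmembrane collagen of hemidesmosomes. It was at 1.23 FPKM at E12.5, 26.5 at E17.5 and 12.7 as the median of Ph1, and at 6.10 at W2, 17.6 as the median and 30.7 at D5 in Ph2. At W3, W6 and W8 it was at 2.54, 0.641 and 0.128 FPKM, all below Ph2. Col17a1 fell by 3.09 ± 0.74 in log2(FPKM + 1) into Ph3 (adjusted p = 0.0029, limma). On that scale this was the largest difference of any tested collagen gene in the step. The adjusted p was 0.018 without W6 and 0.019 without W8. Col7a1, the chain of anchoring fibrils, ranged from 1.204 to 8.02 in Ph1 and from 2.35 to 9.84 in Ph2, and was at 0.936, 0.597 and 1.84 in Ph3. Its differences were 0.61 ± 0.39 (adjusted p = 0.18) and -1.51 ± 0.48 (adjusted p = 0.015).

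The squamous basal markers did not all take the course of Col17a1. Itgb4 was at 1.86 FPKM at E12.5 and 22.9 at E17.5, and still at 27.3, 23.5 and 21.6 at W3, W6 and W8. Krt14 was at 2.86 FPKM at E12.5, 234 at D1, 74.1 at W3, 40.8 at W6 and 0.366 at W8. Krt5 was at 6.56 FPKM at E12.5, 964 at E17.5, 681 at D1, 432 at D5, 84.6 at W3, 27.3 at W6 and 1.26 at W8. The 5 markers Krt5, Krt14, Trp63, Itgb4 and Dsg3 summed to 14.3 to 1114 FPKM in Ph1, 226 to 966 in Ph2 and 23.3 to 190 in Ph3, where most of the sum at W8 was Itgb4 (21.6 FPKM). The part of the amount of squamous tissue in the difference of Col17a1 was not tested.

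The remaining tested members were less abundant. The short-chain collagens Col8a1 and Col8a2 form lattices around vessels and in the eye. Col8a1 was at 4.33 to 6.86 FPKM in Ph1, at 3.62 to 14.9 in Ph2 and at 6.81, 1.18 and 0.672 in Ph3, and fell by 1.83 ± 0.42 into Ph3 (adjusted p = 0.0024, limma), with a p of 0.014 after scaling, 0.022 without W6 and 0.021 without W8. Col8a2 fell by 1.57 ± 0.30 (adjusted p = 0.00073). Falls into Ph3 of under 1 on the log2 scale were seen for Col24a1, Col19a1, Col13a1, Col25a1 and Col28a1, besides Col20a1. That scale understates changes of low genes. In mean FPKM, Col25a1 and Col19a1 fell by larger factors than Col1a1 and Col3a1 did. Col24a1, Col13a1, Col28a1 and Col20a1 fell by smaller factors than Col1a1 and Col3a1. The call of Col13a1 was kept in 5 and that of Col25a1 in 7 of the 15 fits that left out a timepoint. Col11a2, with 4 entries summed, and Col2a1, Col9a1, Col9a3, Col22a1, Col6a5, Col6a6, Col5a3, Col7a1, Col15a1 and Col4a3 did not pass in this step. Of these, Col2a1, Col9a1 and Col22a1 were already below 0.51 FPKM throughout Ph2.

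Ratios of chains do not depend on the scaling of a sample. For 10 pairs and both steps, 20 exact two-sided permutation tests of the mean log2 ratio were made, and none had a Benjamini-Hochberg adjusted p under 0.05, while 8 had an unadjusted p under 0.05. The smallest p possible was 0.0022 for Ph1 against Ph2 and 0.012 for Ph2 against Ph3. The lowest adjusted p was 0.095, shared by 5 tests. In 1 of them Col6a3/Col6a1 went from 0.256 to 0.319 in Ph1 to 0.140 to 0.272 in Ph2 (difference in log2 ratio -0.42, exact p = 0.0087), and it was at 0.166, 0.113 and 0.106 at W3, W6 and W8 (-0.72, exact p = 0.036, adjusted 0.10). Col6a2/Col6a1 went from 1.16 to 1.3 in Ph1 to 1.02 to 1.21 in Ph2 (-0.13, exact p = 0.013).

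In 7 of the 10 pairs the ratio at W2 was the highest of Ph2. Type I collagen holds more alpha-1 than alpha-2 chains. Col1a2/Col1a1 was 0.768 at E12.5, between 0.575 and 0.676 from E13.5 to W1, and 0.835, 0.733, 0.888 and 0.947 at W2, W3, W6 and W8 (Ph3 minus Ph2 0.33 in log2 ratio, exact p = 0.024, adjusted 0.095). Col3a1/Col1a1 was between 0.771 and 1.18 in Ph1, between 0.889 and 1.002 from E18.5 to W1, and 1.47, 1.09, 1.36 and 1.29 at W2, W3, W6 and W8 (0.29, exact p = 0.15). Col4a1/Col1a1 was between 0.142 and 0.213 from E12.5 to W1 and 0.280, 0.216, 0.358 and 0.636 from W2 to W8 (1.13, exact p = 0.024, adjusted 0.095). Col12a1/Col14a1 was 1.18 at E12.5, between 0.364 and 0.636 from E13.5 to W1, and 0.7098, 0.571, 0.740 and 1.54 from W2 to W8 (0.99, exact p = 0.024, adjusted 0.095).

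The type IV and multiplexin pairs differed in how steady they were. Col4a2/Col4a1 was between 0.514 and 0.585 from E12.5 to D1 and between 0.606 and 0.721 from D3 to W8. Its values in Ph3 lay above all of Ph2 (0.21 in log2 ratio, exact p = 0.048, adjusted 0.12). Col4a6/Col4a5 was between 0.340 and 0.591 at all timepoints, with differences of 0.14 (exact p = 0.25) and 0.12 (exact p = 0.46). Col5a2/Col1a1 was 0.175 at E12.5 and 0.0658 at E17.5, between 0.0523 and 0.0891 in Ph2, and 0.0695, 0.104 and 0.128 in Ph3, with differences of -0.61 (exact p = 0.032, adjusted 0.10) and 0.54 (exact p = 0.083). Col18a1/Col15a1 was 2.75 at E12.5, 1.34 at E15.5 and 0.591 at E17.5, and lay between 0.614 and 1.012 from E18.5 to W8, with a difference of -0.70 between the first phases (exact p = 0.11).

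**Figure D5:**
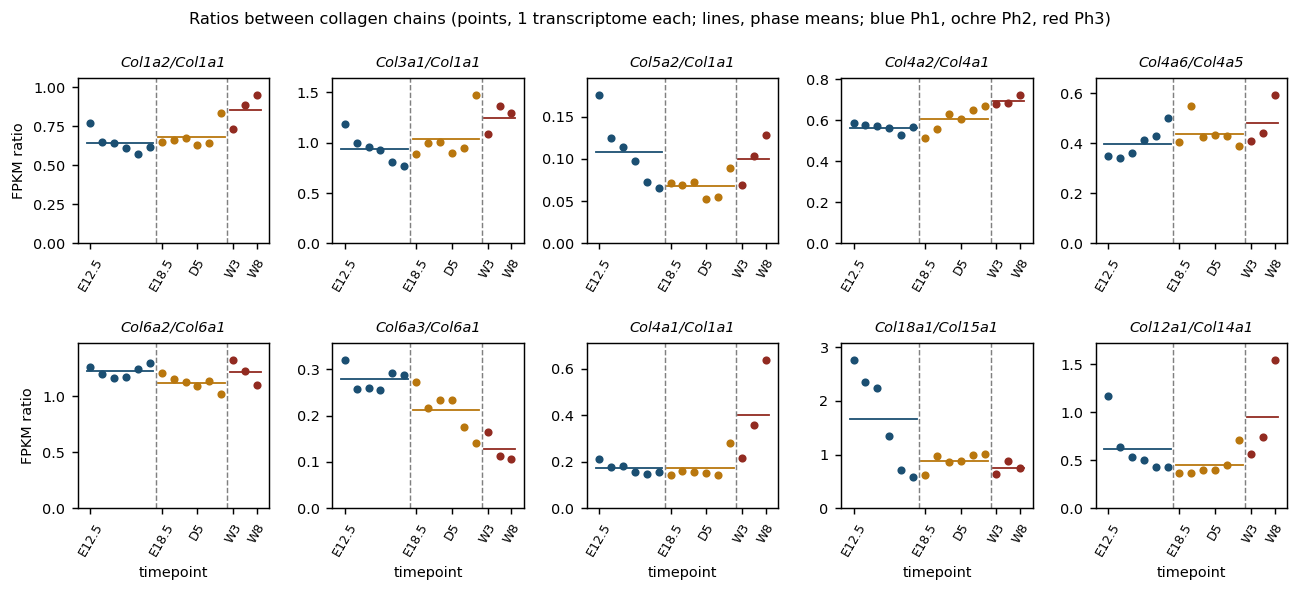
FPKM ratios of 10 pairs of collagen chains at the 15 timepoints (points) with the mean of each phase (lines), on linear axes that start at 0. Col18a1/Col15a1 drops within Ph1, from 2.75 to 0.591, and Col4a1/Col1a1 is highest at W8, at 0.636.

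Genes that modify, fold, cut, crosslink and break down collagen were taken from a list of 63, of which 61 were tested and Mmp8 and Mmp13 were too low. From Ph1 to Ph2 6 rose and 17 fell, and from Ph2 to Ph3 44 fell and none rose. After scaling the counts were 13 and 7 in the first step, and 4 and 27 in the second. The median differences were -0.28 and -1.19 on the log2 scale, and -0.017 and -0.80 after scaling. The shares of all tested genes are those given above, 13.2% and 35.1% in the first step and 3.41% and 37.4% in the second. After scaling they were 20% and 18.7% in the first step and 15.3% and 10.2% in the second. Of the positive differences into Ph3, that of Pcolce2 had an unadjusted p under 0.05 (0.56, adjusted p = 0.017, limma). Without W6 28 fell into Ph3, without D1 and W8 27, and 10 with scaling as well. Of all 16902 tested genes, 2842, 3997 and 788 fell in the same fits. In the first step 2 to 8 rose and 9 to 21 fell when 1 timepoint was left out.

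Several enzymes that hydroxylate proline and lysine fell in the first step, in which the main fibril chains did not pass. P4ha1, a catalytic subunit of prolyl 4-hydroxylase, was at 30.4 to 41.6 FPKM in Ph1, at 11.9 to 28.0 in Ph2 and at 11.99, 7.51 and 6.58 at W3, W6 and W8. It fell by 1.13 ± 0.19 into Ph2 (adjusted p = 0.00021, limma) and by 0.85 ± 0.23 into Ph3 (adjusted p = 0.0056), and its W3 value lay within Ph2. The second fall lost its call after scaling (-0.30, adjusted p = 0.24), without W6 (0.034) and without W8 (0.037). P4ha3 fell by 0.85 ± 0.19 and by 1.121 ± 0.23 (adjusted p = 0.0014 and 0.0011). P4ha2, the alternative subunit, was at 14.6 to 30.2 FPKM in Ph1, at 15.1 to 27.0 in Ph2 and at 22.8, 22.6 and 28.4 in Ph3, and did not pass in either step. After scaling its difference into Ph3 was 0.93 (adjusted p = 0.0045). Plod2, a lysyl hydroxylase whose product makes stiff crosslinks, fell by 0.995 ± 0.20 into Ph2 and by 1.23 ± 0.24 into Ph3 (adjusted p = 0.00069 and 0.00085). Of the 14 genes of this group, 8 fell and 1, Ppib, rose into Ph2, against 35.1% and 13.2% of all tested genes, and after scaling 4 fell and 2 rose, against 18.7% and 20%. Into Ph3 10 fell, against 37.4%, and after scaling 7 fell and 1, P4ha2, rose, against 10.2% and 15.3%. The call of Ppib held in 3 of the 15 fits that left out a timepoint.

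Of the 9 chaperone and export genes, 6 fell into Ph3 as deposited, against 37.4% of all tested genes, and after scaling 2 fell and 2, Mia3 and Ctage5, rose, against 10.2% and 15.3%. Of the 7 genes of procollagen processing 4 fell into Ph3, and after scaling 3 fell and 1, Pcolce2, rose. Serpinh1, the collagen chaperone also called Hsp47, was at 449 to 662 FPKM in Ph1, at 172 to 389 in Ph2 and at 197, 78.1 and 53.0 in Ph3. It fell by 1.03 ± 0.27 and by 1.60 ± 0.33 (adjusted p = 0.0046 and 0.0013, limma), and after scaling the adjusted p was 0.017 and 0.015. The first fall kept its call in 8 of the 15 fits that left out a timepoint. Bmp1, the protease that removes the C-terminal propeptide, fell by 2.16 ± 0.29 into Ph3 (adjusted p = 0.00012), and its enhancer Pcolce differed by -1.25 ± 0.40 (adjusted p = 0.015). The crosslinking enzyme Lox was at 13.0 to 69.0 FPKM in Ph1, at 19.3 to 65.5 in Ph2 and at 16.9, 3.07 and 2.17 in Ph3, and fell by 2.67 ± 0.56 (adjusted p = 0.0013, and 0.013 without W6 and 0.011 without W8). Loxl2, of the same family, fell by 1.68 ± 0.29 (adjusted p = 0.00046). All 6 crosslinking genes fell into Ph3, and 4 of them after scaling.

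Genes of breakdown, receptors and fibril partners were mixed in the first step. Ctsk, a protease that cleaves fibrillar collagen, was at 2.20 to 10.1 FPKM in Ph1, at 13.0 to 20.95 in Ph2 and at 11.9, 3.67 and 2.82 in Ph3. It rose by 1.21 ± 0.32 into Ph2 (adjusted p = 0.0044, limma) and fell by 1.55 ± 0.39 into Ph3 (adjusted p = 0.0040, with 0.041 after scaling, 0.031 without W6 and 0.032 without W8). The proteases Mmp2 and Mmp14 fell by 2.06 ± 0.21 and 2.37 ± 0.28 into Ph3 (adjusted p = 4.8e-05 and 7.5e-05). The collagen receptor Ddr1, made by epithelia, was at 45.9 to 60.2 FPKM at all timepoints and did not pass in either step, and Ddr2, made by mesenchyme, fell by 1.07 ± 0.20 into Ph3 (adjusted p = 0.00065, and 0.020 after scaling).

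The largest rises into Ph2 on this list were of fibril partners. Tnxb, a matrix protein that binds collagen fibrils, was at 0.405 FPKM at E12.5 and 6.16 at E17.5 and at 8.32 to 25.3 in Ph2, and rose by 2.36 ± 0.37 (adjusted p = 0.00017, limma). Postn, periostin, rose by 2.06 ± 0.34 (adjusted p = 0.00023), from 17.7 to 54.0 FPKM in Ph1 to 76.3 to 191 in Ph2. The small proteoglycan Bgn rose by 1.32 ± 0.38 (adjusted p = 0.0077), a call lost when any of 9 timepoints was left out. Fbn2, a fibrillin of fetal microfibrils, fell by 1.53 ± 0.34 into Ph2 and by 2.82 ± 0.42 into Ph3 (adjusted p = 0.0015 and 0.00018), and was at 36.8 FPKM at E12.5 and 0.211 at W6. Thbs2 fell by 2.49 ± 0.45 into Ph3 (adjusted p = 0.00055).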

How the data were processed

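Whole stomachs of C57BL/6 mice were profiled by RNA-seq at 15 timepoints, with 1 transcriptome each. The authors deposited FPKM values per RefSeq transcript locus with lower and upper bounds, in the layout of Cufflinks and with GRCm38 coordinates. The submitters' processing notes name Bowtie 0.12.2, FastQC and GRCm38.p2, while the study's methods name HISAT2 and StringTie, and name liver as the source of RNA where the labels name stomach. Read depth is unknown, so no counting intervals are given.

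Entries of a symbol were summed (4 for Col11a2, 2 for Col16a1). The test was limma (3.58.1, under R 4.3.3) on log2(FPKM + 1) for symbols reaching 1 FPKM at any timepoint, with contrasts of consecutive phases over all 15 samples and Benjamini-Hochberg adjustment over 16902 symbols. This scale understates changes of low genes. The call was an adjusted p under 0.01. Scripts were tested on simulated data. Ratios of 10 chain pairs were compared by exact two-sided permutation tests. The collagen genes, their classes, the chain pairs, the assembly list and the phases were chosen with earlier results of these data known. Values were given in full for the most abundant member of each class, the 6 called members with the largest difference in each step and the chains of the ratios, and for the assembly list the 4 largest called differences in each step and 13 genes chosen for their role. Other genes were named after their values were seen. Alternatives were median-ratio scaling over 17090 symbols, quantile normalization, a pseudocount of 0.1, no filter, the first entry of a symbol, other phase boundaries and leaving out each timepoint. Leaving out D1 and W8 was added after seeing the data.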

Additional observations from a re-analysis of the deposited data

Results flagged for a closer look

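Within phases of 6 timepoints, 104 groups of FPKM values or chain ratios were searched for a single timepoint far from the other 5, by Dixon's test, which chance passes in about 1 of 20 groups. There were 13 such values, and 9 of them were at W2, the last timepoint of Ph2.

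At W2, Col12a1 was at 6.53 FPKM against 12.2 to 17.4 at the other timepoints of Ph2, and Col14a1 was at 9.20 against 31.6 to 46.9. Col8a1 was at 3.62 against 9.90 to 14.9, Col8a2 at 2.54 against 6.30 to 8.72 and Col6a6 at 0.0534 against 0.538 to 0.810. The ratios at W2 were 0.835 for Col1a2/Col1a1 (others 0.628 to 0.676), 1.47 for Col3a1/Col1a1 (0.889 to 1.002), 0.280 for Col4a1/Col1a1 (0.142 to 0.162) and 0.7098 for Col12a1/Col14a1 (0.364 to 0.456). The mesenchyme markers summed to 316.5 FPKM at W2, the lowest value of Ph2. Within that sum Vim (153.5 FPKM) and Fbln1 (56.8 FPKM) were at their lowest of Ph2. Pdgfra (13.98 FPKM), Pdgfrb (10.25 FPKM), Dpt (79.1 FPKM) and Meox1 (2.86 FPKM) were not. The part of the marked cells in these collagen values was not tested.

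The other 4 values were at different timepoints. Col24a1 was at 0.776 FPKM at E17.5 against 1.58 to 1.84 in the rest of Ph1. Col23a1 was at 12.51 FPKM at D5 against 5.58 to 6.47 in the rest of Ph2. Col4a6/Col4a5 was 0.549 at D1 against 0.389 to 0.433, and Col18a1/Col15a1 was 0.614 at E18.5 against 0.866 to 1.012.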

How the results depend on the processing

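No call of a collagen gene turned direction under any alternative. From Ph1 to Ph2, 5 collagen genes fell with phases divided at birth and weaning, and leaving out 1 timepoint gave 2 to 2 that rose and 8 to 12 that fell. From Ph2 to Ph3, 1 rose after median-ratio scaling and 1 after quantile normalization, and 19 fell after quantile normalization, 20 without D1 and W8, and 4 with scaling and without D1 and W8. Leaving out 1 timepoint gave 0 to 0 that rose and 20 (without W6) to 34 that fell. Of the assembly genes, 13 rose into Ph2 after scaling, with and without D1 and W8, and 3 with a pseudocount of 0.1, with no filter or with phases at birth and weaning, while 7 fell after scaling, 11 without D1 and W8 and 5 with both. Into Ph3, 4 rose after scaling, 2 after quantile normalization and 2 with scaling and without D1 and W8, while 27 fell after scaling, 27 after quantile normalization, 27 without D1 and W8 and 10 with both. Leaving out 1 timepoint gave 2 to 8 higher and 9 to 21 lower assembly genes into Ph2, and 0 to 1 higher and 28 (without W6) to 47 lower into Ph3. Among all 16902 tested genes, 3385 rose and 3158 fell into Ph2 after scaling, and 5472 fell without D1 and W8. With both, 3176 rose and 2872 fell. Into Ph2, 2185 rose with a pseudocount of 0.1 and 1820 with phases at birth and weaning, and 2030 of 28775 rose with no filter. Into Ph3, 2585 rose and 1716 fell after scaling, and 1728 rose and 1293 fell after quantile normalization. Without D1 and W8 3997 fell into Ph3, and with both 1729 rose and 788 fell. With 1 timepoint left out, 1736 to 2590 rose and 5011 to 6444 fell into Ph2, and 306 to 740 rose and 2842 to 6870 fell into Ph3. The cause of these shifts was not tested. With phases at birth and weaning, the log2 ratio differed from Ph1 to Ph2 by -0.15 for Col6a2/Col6a1 and by -0.50 for Col6a3/Col6a1 (both with adjusted p = 0.025, exact permutation test). Leaving out 1 timepoint gave -0.15 to -0.10 and -0.50 to -0.31, and both passed without E18.5 (adjusted p = 0.043, exact permutation test). With 1 transcriptome at each timepoint and depth unknown, neither animal variation nor counting error could be measured. No paired analysis was possible because each timepoint is a separate sample and no number pairs the samples of the phases.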
